A study of Mus musculus with 9 samples.

Results

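The genes described here are 10 genes that mark spinal motor neurons or serve their use of acetylcholine: Isl1, Isl2, Mnx1, Lhx3, Ache, Slc18a3, Slc5a7, Mmp9, Esrrg and Cntfr. Their members on the array were all probe sets that the platform annotation assigns to 1 of these genes alone, which gave 14 probe sets of the 22626 that were not array controls. Isl1, Lhx3, Mmp9 and Cntfr each had 2 probe sets and the other 6 genes had 1. The rule used gene names and no measured value, but the genes were chosen with earlier results of these data known. Of the 14 probe sets, 9 lay at or under the background of the arrays, and these included every probe set of Isl1, Mnx1, Lhx3, Slc18a3 and Slc5a7. Isl2, Ache, Mmp9, Esrrg and Cntfr each had 1 probe set above background.

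RNA came from motor neurons cut by laser from sections of the lumbar spinal cord of mice and was amplified doubly before hybridisation to Affymetrix 3' arrays. There were 3 arrays in each of 3 groups: wild-type mice given vehicle, mice with spinal muscular atrophy (SMA) given vehicle, and SMA mice that received a transplant of NSC, the neural stem cells of the study. Treatment was given on postnatal day 1 and tissue was taken on day 13, in all 3 groups. The labels state that the cells of 1 animal went onto each array, and on that statement the p-values rest on the spread between 3 animals in a group. The labels call the diseased animals transgenic SMA mice. The sources used here do not give the alleles, the strain or the sex of the animals. The cells were picked from cords perfused with paraformaldehyde and cut at 16 µm, with about 100 cells to a cap. The dissection takes the whole area under the laser, so material of neighbouring cells can be included. Fewer motor neurons in the cut and less RNA per motor neuron cannot be told apart in these values.

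Spinal motor neurons are specified by a code of homeodomain transcription factors. Isl1 and Lhx3 act together in one complex to turn on motor neuron genes, Isl2 overlaps with Isl1, and Mnx1 (HB9) holds down the programme of neighbouring interneurons. The mature cells release acetylcholine at the neuromuscular junction: Slc18a3 (VAChT) loads it into vesicles, Ache (acetylcholinesterase) breaks it down in the cleft, and Slc5a7 carries the released choline back into the terminal. Chat, which makes acetylcholine, had no probe set naming it alone and is not described here. Among motor neurons, Mmp9, a secreted protease, marks the fast cells, which are lost early in motor neuron disease, and Esrrg, an orphan nuclear receptor, marks the gamma motor neurons of muscle spindles. Cntfr is the receptor subunit that binds ciliary neurotrophic factor (CNTF), a survival factor for these cells.

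The Isl2 probe set and 1 of the 2 Lhx3 probe sets, a near-background one, read highest on the 3 transplanted arrays, and a start region of each gene is shown for that reason. Each region shown holds a motif that few mouse start regions hold. Lhx3 had another start region, not shown, which held none of the motifs searched for. Both regions shown run from 250 bases before to 50 bases after a RefSeq transcript start (GRCm38.p6), 5′ to 3′ on the gene's strand. The capitals mark the motif. The Isl2 window lies at chr9:55540899-55541198 on the plus strand and the Lhx3 window at chr2:26208200-26208499 on the minus strand.
Isl2: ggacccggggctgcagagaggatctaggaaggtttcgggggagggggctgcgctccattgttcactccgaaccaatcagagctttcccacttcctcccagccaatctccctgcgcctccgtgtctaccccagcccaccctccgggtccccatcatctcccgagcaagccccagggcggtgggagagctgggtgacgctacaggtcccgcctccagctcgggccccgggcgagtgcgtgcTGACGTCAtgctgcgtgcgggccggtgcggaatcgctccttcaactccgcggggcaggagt
Lhx3: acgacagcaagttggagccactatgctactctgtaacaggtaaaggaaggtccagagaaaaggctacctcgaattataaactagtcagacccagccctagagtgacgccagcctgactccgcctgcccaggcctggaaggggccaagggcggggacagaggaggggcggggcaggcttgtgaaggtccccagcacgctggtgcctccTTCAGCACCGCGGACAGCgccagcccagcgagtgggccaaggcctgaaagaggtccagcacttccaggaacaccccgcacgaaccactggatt
The Isl2 capitals are TGACGTCA, the palindrome bound by CREB-family factors, which starts 11 bases upstream of the transcript start. This motif was found on either strand in 1.8% of 32544 distinct mouse windows of that length, 586 in all. The Lhx3 capitals, with any base allowed at the middle pair, were searched for as the core of the RE1 element, which is read by the silencer REST. They start 43 bases upstream of the transcript start. That motif was searched for after the Lhx3 sequence had been read, and 3 windows held it, 0.00922% of all. The homeodomain motif TAATTA stood in 5.29% of windows and among the members in a Cntfr window alone. The E-box CAGCTG stood in 16.4% of windows and in windows of Cntfr, Isl1 and Mnx1. The motif of oestrogen-related receptors, TNAAGGTCA, stood in 1.28% of windows and in no member window. RefSeq windows were matched for 9 of the 10 genes, 18 windows in all. Mmp9 was not matched. A match is a description of the letters and says nothing of binding.

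The values were the deposited MAS5 signals, a linear brightness with a trimmed mean of 100 on each array. Background was set from 52 probe sets of 41 genes that belong to other organs, such as liver, pancreas, eye and testis genes. The threshold was the 90th percentile of their medians over the 9 arrays, a signal of 24.1, and 42.2% of all probe sets lay at or under it. By their mean signal, the 9 dim member probe sets stood between percentile 3.17 and percentile 31.1 of all probe sets, and the 5 brighter ones between percentile 51.6 and percentile 62.2. The member nearest above the threshold was Mmp9 probe set 1416298_at, with a median of 31.5. It would fall below the 95th percentile of the same other-organ probe sets, 31.6. On a single array, 4 to 6 of the 14 member probe sets exceeded 24.1, and 4 to 13 of the 52 other-organ probe sets did.

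The array labelled transplanted SMA 3 stood apart in genes of the sex chromosomes. The female X-inactivation RNA, Xist, had signals of 23.5 to 47.6 on all wild-type arrays and SMA array 3, where the Y-linked gene Eif2s3y read 49.0 to 108.9. On SMA arrays 1 and 2 and transplanted arrays 1 and 2, Xist read 600.7 to 879.5 and Eif2s3y 0.1 to 0.5. Transplanted array 3 alone read both, with Xist at 366.1 and Eif2s3y at 84.8, which goes against cells of 1 animal on that array. Isl2 is also given without that array, against SMA and against wild type. Ache and the brighter probe sets of Lhx3 and Mmp9 are given without it against vehicle-treated SMA only. The remaining differences that use that array have no separate value without it here. Between wild type and transplanted SMA, Xist level and group cannot be told apart.

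**Figure D1:**
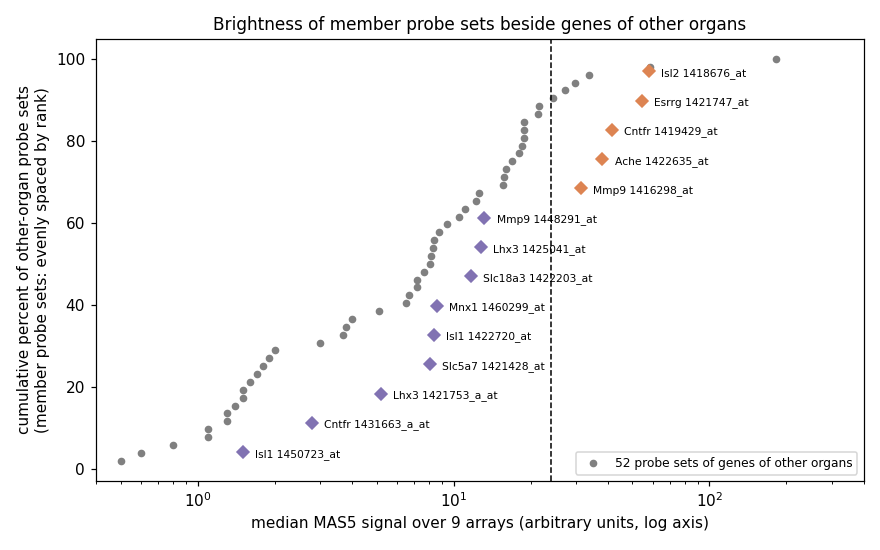
Median MAS5 signal over the 9 arrays (log axis) of the 14 member probe sets, as diamonds spaced by rank, and of the 52 probe sets of other-organ genes that set the background, as grey points at their cumulative percent. The dashed line is the background threshold of 24.1, with 9 member probe sets to its left and 5 to its right.

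Among the homeodomain factors, only the Isl2 probe set gave a signal above background. Isl2 probe set 1418676_at measured 43.0, 59.6 and 26.4 on the wild-type arrays, 47.8, 34.7 and 58.0 on the SMA arrays, and 119.8, 83.7 and 62.6 on the transplanted arrays. All 3 transplanted arrays were above all 6 others, and the wild-type and SMA ranges overlapped. The group means were 43.0 ± 16.6 (SD, n = 3) in wild type, 46.8 ± 11.7 in SMA and 88.7 ± 28.9 in transplanted SMA.

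Differences were tested as log2(signal + 16) in limma over the brighter 50% of probe sets, 11313 in all, which included the 5 member probe sets above background. On this scale a difference understates the fold change of a dim probe set. Isl2 was 0.72 higher in transplanted SMA than in SMA (SE 0.27, adjusted p = 0.933, limma with Benjamini-Hochberg adjustment), with a 95% interval of 0.13 to 1.3. Against wild type the difference was 0.83 (SE 0.27, adjusted p = 0.671, limma), with an interval of 0.25 to 1.42. SMA and wild type differed by 0.11 (SE 0.27, adjusted p = 1.0, limma), with an interval of -0.47 to 0.7. The 3 comparisons share their arrays in pairs, so that high transplanted values enter the differences from SMA and from wild type alike. None of the Isl2 differences passed the adjusted threshold of 0.05. Without transplanted animal 1, the Isl2 difference from SMA was 0.51. Without transplanted array 3 it was 0.91 from SMA and 1.02 from wild type.

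A transplanted group wholly above all 6 other arrays, as for Isl2, was seen for 159 of the 11313 tested probe sets, 1.41%. Over all probe sets the share was 1.99%, or 450 probe sets. Lhx3 probe set 1425041_at was another of these, although its median was near background. It measured 12.4, 12.8 and 8.1 on the wild-type arrays, 17.4, 5.1 and 5.1 on the SMA arrays and 19.9, 19.9 and 31.1 on the transplanted arrays. In a fit of all 22626 probe sets it was 0.68 higher in transplanted than in vehicle-treated SMA (SE 0.22, adjusted p = 0.874, limma), and 0.55 higher without transplanted array 3, which held its highest value. The other Lhx3 probe set, 1421753_a_at, did not share this order: it measured 19.4 on transplanted array 1 but 2.5 and 2.9 on the others, between 2.8 and 10.9 in SMA and between 2.5 and 10.3 in wild type. Its transplanted-minus-SMA difference was 0.02. The summed signal of the 41 other-organ genes was also higher on each transplanted array than on the other 6. Within the transplanted group that sum was lowest on array 3, where Lhx3 probe set 1425041_at was highest. That sum was 536 to 756 in wild type, 694 to 857 in SMA and 870 to 1007 in transplanted SMA. The part of this background in the Lhx3 values was not tested.

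Isl1 and Mnx1 were near background in all groups. The brighter Isl1 probe set, 1422720_at, ranged from 5.3 to 16.7 in wild type, 3.8 to 11.3 in SMA and 6.6 to 8.9 in transplanted SMA. The second Isl1 probe set, 1450723_at, was at 8.2 or less on all 9 arrays. Mnx1 probe set 1460299_at ranged from 7.7 to 16.3, 5.0 to 13.0 and 4.1 to 11 in the same order. All of these group ranges overlapped. At these signals a difference in Isl1 or Mnx1 was not detectable, and the arrays do not show whether the cut cells held their transcripts.

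**Figure D2:**
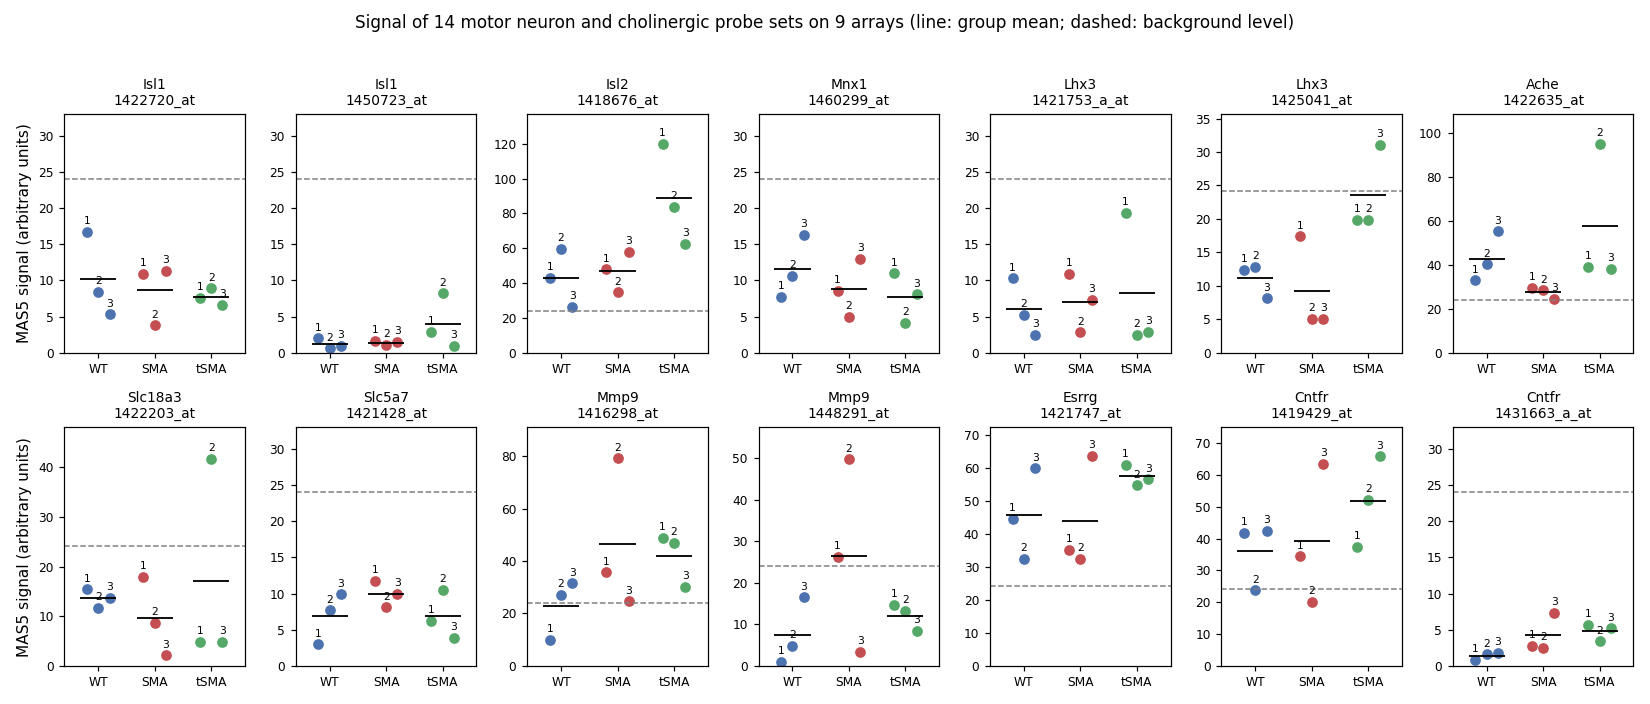
MAS5 signal of each of the 14 member probe sets on the 9 arrays, by group, with a linear axis that starts at 0 and is scaled separately in each panel. Numbered points are single arrays (WT, wild type; tSMA, transplanted SMA), short lines are group means, and the dashed line is the background threshold of 24.1. The 3 transplanted Isl2 values, 62.6 to 119.8, sit above the other 6.

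Of the cholinergic genes, Ache alone stood above background. Ache probe set 1422635_at measured 32.9, 40.2 and 55.2 on the wild-type arrays, 29.5, 28.4 and 24.5 on the SMA arrays and 39.2, 95.1 and 38.2 on the transplanted arrays. All 3 SMA animals were below all 6 others, an order that 143 of the tested probe sets, 1.26%, shared. The group means were 42.8 ± 11.4 (SD, n = 3) in wild type, 27.5 ± 2.63 in SMA and 57.5 ± 32.6 in transplanted SMA. SMA minus wild type was -0.42 (SE 0.27, adjusted p = 0.936, limma), with an interval of -1.02 to 0.18. Transplanted minus vehicle-treated SMA was 0.67 (SE 0.27, adjusted p = 0.933, limma), with an interval of 0.07 to 1.27. It was 0.33 without transplanted animal 2, whose Ache value of 95.1 was the highest, and 0.85 without transplanted array 3. The low SMA arrays enter both differences. Transplanted SMA and wild type overlapped, with a difference of 0.25 (SE 0.27, adjusted p = 0.926, limma) and an interval of -0.34 to 0.85, which became -0.09 without transplanted animal 2.

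The general neuron markers, a list of 13 genes, also stood high as a sum on transplanted array 2. Their summed signal was 4944 there and 1773 to 3722 on the other 8 arrays, and 8 of the 13 genes had their highest value there. Of 15 interneuron genes, 6 were highest on the same array, where their sum was 1187 against 439 to 890 on the other 8. Of 27 tested oligodendrocyte probe sets, 1 had a positive difference in SMA against wild type (median -0.35), against 51.0% of all tested probe sets. In transplanted against vehicle-treated SMA 24 had one (median 0.25), against 50.3%. This was the same order as Ache, with 0 passing the adjusted threshold in limma in either comparison. The summed oligodendrocyte signal was 33608 to 39092 in wild type, 25253 to 44902 in SMA and 33905 to 47145 in transplanted SMA, with SMA array 3 at 44902. Some kidney genes also peaked on transplanted array 2. On their brightest probe sets, Umod read 115.6 there and 1.1 to 11.9 elsewhere, and Slc12a1 62.4 and 11.4 to 20.9. Slc34a1 read 51.2 there and 11.4 to 20.8 elsewhere. Another kidney gene, Aqp2, read 30.4 there and was highest on transplanted array 3, at 39.1. These kidney genes were picked after their values had been seen. The part of these cell types and of kidney genes in the Ache and Slc18a3 values was not tested.

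The transporters that handle acetylcholine and choline were near background. Slc18a3 probe set 1422203_at measured 15.4, 11.7 and 13.7 on the wild-type arrays, 18.0, 8.7 and 2.1 on the SMA arrays and 4.8, 41.7 and 4.8 on the transplanted arrays. Its value above background came from transplanted array 2 alone, and the groups overlapped in all 3 comparisons. Slc5a7 probe set 1421428_at ranged from 3.0 to 9.9 in wild type, 8.1 to 11.8 in SMA and 3.9 to 10.5 in transplanted SMA, again with overlap. VAChT and the choline transporter define cholinergic neurons, and their dim probe sets limit what these arrays show of that identity.

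The wider list of acetylcholine synthesis, release and breakdown held 15 genes, 13 with a probe set of their own. Of its 14 tested probe sets, 0 were higher and 2 lower in SMA than in wild type at an unadjusted p under 0.05, where all tested probe sets gave 6.04% in either direction, and 0 passed the adjusted threshold in limma. The median difference of the list was -0.13, against 0.01 over all tested probe sets. Prima1, the membrane anchor of acetylcholinesterase in the brain, was 1 of the 2. Prima1 measured 64.1, 49.8 and 61.2 on the wild-type arrays, 33.3, 30.9 and 39.1 on the SMA arrays and 59.7, 57.5 and 43.2 on the transplanted arrays. Like Ache, Prima1 was lower in each SMA animal than in all 6 others. SMA minus wild type was -0.56 (SE 0.17, adjusted p = 0.599, limma), and transplanted minus vehicle-treated SMA was 0.46 (SE 0.17, adjusted p = 0.933, limma). The other was a probe set of Acly, which makes cytosolic acetyl-CoA, at -0.4 (SE 0.16, adjusted p = 0.788, limma). The brightest Acly probe set overlapped between these groups, at 699.7, 768.5 and 735.4 in wild type and 483.4, 702.6 and 875.2 in SMA. Prima1 and Ache were the 2 probe sets of the list with an unadjusted p under 0.05 between transplanted and vehicle-treated SMA, against 4.77% of all tested probe sets. Between transplanted SMA and wild type there was 1, a probe set of Pdha1, a subunit of the pyruvate dehydrogenase that makes mitochondrial acetyl-CoA, 0.39 higher (SE 0.16, adjusted p = 0.713, limma), against 6.55% of all tested probe sets. The other Pdha1 probe set disagreed with it, at 622.1, 533.9 and 535.9 in wild type and 520.3, 522.5 and 482.7 in transplanted SMA.

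Acetylcholine receptors and their modulators could hardly be read. Of 23 listed genes, 18 had a probe set, 3 of their 23 probe sets were above background and 1 was tested. That was Lynx1, a membrane protein that damps nicotinic receptors, which measured 163.8, 151.5 and 133.1 on the wild-type arrays, 139.7, 78.5 and 86.3 on the SMA arrays and 240.6, 284.2 and 131.4 on the transplanted arrays. Transplanted minus vehicle-treated SMA was 0.97 (SE 0.28, adjusted p = 0.933, limma), with overlapping groups.

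Of the genes that mark kinds of motor neuron, Mmp9 and Esrrg had a probe set above background. Mmp9 probe set 1416298_at measured 10, 27.0 and 31.5 on the wild-type arrays, 35.7, 79.2 and 24.6 on the SMA arrays and 48.9, 47.0 and 30.2 on the transplanted arrays. The groups overlapped in all 3 comparisons, with the lowest value in a wild-type animal and the highest in SMA animal 2. The means were 22.8 ± 11.3 (SD, n = 3), 46.5 ± 28.9 and 42.0 ± 10.3. The wild-type mean lay under the background of 24.1. In mean log2(signal + 16), wild type stood at 5.23, under the lowest mean tested, 5.63. SMA and transplanted SMA, at 5.87 and 5.84, carried the probe set over that filter. SMA minus wild type was 0.64 (SE 0.33, adjusted p = 0.855, limma), with an interval of -0.08 to 1.36. Transplanted minus vehicle-treated SMA was -0.03, with an interval of -0.75 to 0.69, and 0.13 without transplanted array 3.

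The second Mmp9 probe set, 1448291_at, was near background at its median but varied over a wide range. It measured 0.9, 4.8 and 16.5 on the wild-type arrays, 26.3, 49.8 and 3.4 on the SMA arrays and 14.7, 13.2 and 8.4 on the transplanted arrays. On both Mmp9 probe sets SMA animal 2 was the highest of its group, followed by animal 1 and then animal 3. Its SMA-minus-wild-type difference was 0.75 in the fit of all probe sets (SE 0.39, adjusted p = 0.939, limma), and -0.22 without SMA arrays 1 and 2. For the brighter Mmp9 probe set the difference without those arrays was 0.11, and without SMA array 2 alone 0.29. Leaving out wild type 3 and SMA 3 moved both the other way, to 1.49 (adjusted p = 0.221, limma) for the dimmer probe set and 1.07 (adjusted p = 0.637, limma) for the brighter one.

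SMA arrays 1 and 2 stood apart in other genes too. The summed signal of 12 skeletal muscle genes was 2526 and 3154 there and 129 to 311 on the other 7 arrays. Xist read 600.7 and 879.5 on SMA arrays 1 and 2, against 23.5 to 47.6 on SMA array 3 and the wild-type arrays. On the transplanted arrays it read 366.1 to 739.6. Mmp8, the collagenase of neutrophils, read 115.2 on SMA array 2 and 24.0 to 46.8 elsewhere, and the liver gene Alb read 140.4 there and 17.0 to 41.4 elsewhere. Mmp8 and Alb were picked after their values had been seen. The part of Xist level, of muscle and of these genes in the Mmp9 values was not tested. A list of matrix metalloproteases and their inhibitors, Mmp9 included, had 16 tested probe sets. Of these, 1 was higher in SMA than in wild type at an unadjusted p under 0.05, where all tested probe sets gave 6.04% in either direction. It was Timp2, an inhibitor of matrix metalloproteases, higher by 0.83 (SE 0.25, adjusted p = 0.599, limma). Timp2 measured 304.5, 530.7 and 478.8 in wild type against 853.9, 931.8 and 569.7 in SMA. It read 818.6, 646.2 and 557.3 after transplantation.

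Esrrg, the gamma motor neuron marker, did not separate the groups. Esrrg probe set 1421747_at measured 44.5, 32.4 and 59.8 on the wild-type arrays, 35.1, 32.4 and 63.6 on the SMA arrays and 60.9, 54.6 and 56.5 on the transplanted arrays. The group ranges overlapped in each comparison. The transplanted arrays lay closest together, at 57.3 ± 3.23 (SD, n = 3), against 45.6 ± 13.7 in wild type and 43.7 ± 17.3 in SMA. The differences were -0.06 (interval -0.57 to 0.45) for SMA minus wild type, 0.33 (interval -0.17 to 0.84) for transplanted minus vehicle-treated SMA, and 0.28 (interval -0.23 to 0.78) for transplanted SMA minus wild type. No probe set of the 5 oestrogen-related receptor and cofactor genes listed, 8 tested, had an unadjusted p under 0.05 in limma in any comparison.

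Cntfr probe set 1419429_at measured 41.7, 23.7 and 42.5 on the wild-type arrays, 34.4, 20.1 and 63.4 on the SMA arrays and 37.4, 52.2 and 65.8 on the transplanted arrays. The groups overlapped in all comparisons. The differences were 0.04 (interval -0.61 to 0.68), 0.35 (interval -0.29 to 0.99) and 0.38 (interval -0.26 to 1.03) for SMA against wild type, transplanted against vehicle-treated SMA and transplanted SMA against wild type. The second Cntfr probe set, 1431663_a_at, read between 0.8 and 7.3 on all arrays. Every SMA and every transplanted value of it was above every wild-type value, at signals that lie far under the threshold of 24.1.

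The signalling chain behind the CNTF receptor was tested as a list. It held 17 genes, 14 with a probe set and 17 tested probe sets. At an unadjusted p under 0.05, 2 were higher and 0 lower in SMA than in wild type. Between transplanted and vehicle-treated SMA 2 were higher and 1 lower, and between transplanted SMA and wild type 2 and 0. In both of these comparisons the 2 higher ones were probe sets of 1 gene, Socs3. All tested probe sets gave 6.04%, 4.77% and 6.55% in either direction in the 3 comparisons. None passed the adjusted threshold. Those that differed between SMA and wild type were Jak2, the kinase bound to the receptor complex, and Stat3, the transcription factor it activates. Jak2 measured 102.5, 123.4 and 122.0 on the wild-type arrays, 207.1, 165.2 and 220.9 on the SMA arrays and 152.3, 122.5 and 119.2 on the transplanted arrays. SMA was 0.69 above wild type (SE 0.18, adjusted p = 0.534, limma), and transplanted SMA was -0.53 from SMA (SE 0.18, adjusted p = 0.933, limma). Each SMA value of Jak2 lay above the other 6. Stat3 was 0.58 higher in SMA than in wild type (SE 0.21, adjusted p = 0.732, limma).

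Socs3, the feedback inhibitor that Stat3 induces, was high on the transplanted arrays. Its probe set 1455899_x_at measured 20.3, 41.5 and 59.5 on the wild-type arrays, 35.5, 47.5 and 45.5 on the SMA arrays and 359.1, 92.2 and 152.9 on the transplanted arrays, a difference of 1.7 from SMA (SE 0.4, adjusted p = 0.933, limma). The other Socs3 probe set, 1416576_at, was 1.26 above wild type (SE 0.27, adjusted p = 0.313, limma), at 135.5, 66.9 and 60.4 in transplanted SMA against 19.4, 23.3 and 34.2. All transplanted values of both Socs3 probe sets lay above the other 6. These signalling genes are expressed by many cell types, and the lists do not assign their signal to motor neurons.

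Over all members, 0 of the 5 tested probe sets passed an adjusted p of 0.05 in any of the 3 comparisons in limma. The background was 5 of 11313 probe sets, 0.0442%, for SMA against wild type, 0 (0.0%) for transplanted against vehicle-treated SMA and 0 (0.0%) for transplanted SMA against wild type. At an unadjusted p under 0.05 the members gave 0, 2 and 1 of 5 in the same order, where all tested probe sets gave 6.04%, 4.77% and 6.55%. The 2 were Isl2 and Ache, and the 1 was Isl2. With groups of 3 that did not overlap, Ache was lower in SMA than in wild type (6.06% of tested probe sets were lower in this way), and Isl2 and Ache were higher in transplanted than in vehicle-treated SMA (4.43% were higher). Isl2 was higher in transplanted SMA than in wild type (7.11%). An exact permutation test of 3 against 3 arrays cannot give a two-sided p below 0.1.

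The 9 near-background probe sets took both directions. In the fit of all probe sets, 5 were positive and 4 negative in SMA against wild type, with a median of 0.02 and a range of -0.26 to 0.75. Transplanted against vehicle-treated SMA gave 5 positive and 4 negative, from -0.43 to 0.68, and transplanted SMA against wild type 6 and 3, from -0.21 to 0.54. The adjusted threshold was passed by 0 of them in each comparison, where 4 of all 22626 probe sets passed for SMA against wild type (0.0177%) and 0 (0.0%) in each of the others. At an unadjusted p under 0.05 there were 0, 1 and 1, each time Lhx3 probe set 1425041_at, against 5.42%, 5.45% and 6.74% of all probe sets. In groups of 3 that did not overlap, Lhx3 probe set 1425041_at was higher in transplanted than in vehicle-treated SMA, as were 5.36% of all probe sets. It and Cntfr probe set 1431663_a_at were higher in transplanted SMA than in wild type, as were 8.72%, and the Cntfr probe set was higher in SMA than in wild type, as were 6.27%.

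**Figure D3:**
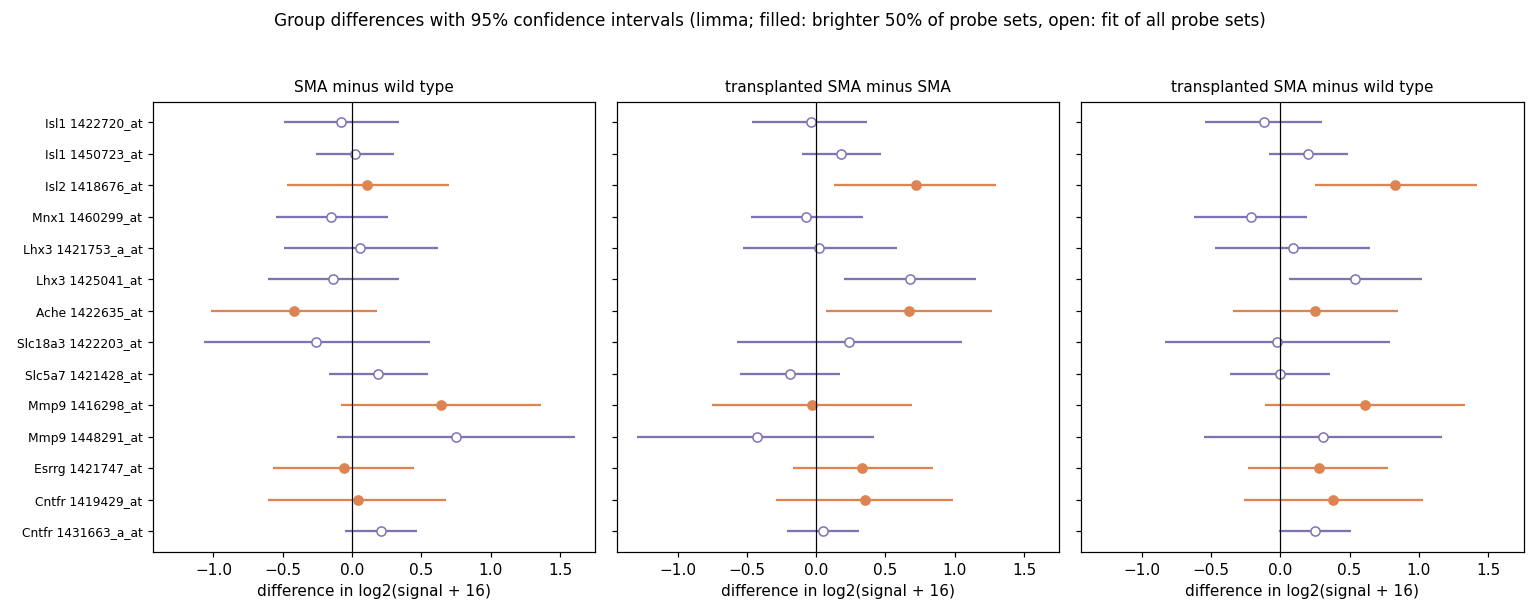
Differences in log2(signal + 16) for the 14 member probe sets in the 3 comparisons, with 95% intervals from limma. Filled points are the 5 probe sets above background and open points the 9 near it. The Isl2 intervals against both other groups and the Ache interval of transplanted against vehicle-treated SMA lie above 0, as do those of Lhx3 probe set 1425041_at against both other groups. These intervals are not adjusted for the number of probe sets tested.

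The members were then set beside wider lists of motor neuron genes. A list of 23 motor neuron transcription factor genes, 5 of them members, had 21 genes with a probe set, and 15 of their 37 probe sets were above background. Among 14 tested, 1 was higher and 0 lower in SMA than in wild type at an unadjusted p under 0.05, 1 and 1 differed between transplanted and vehicle-treated SMA, and 3 and 0 between transplanted SMA and wild type. The shares of all tested probe sets were 6.04%, 4.77% and 6.55%. Isl2 was among the higher ones in both comparisons with transplanted SMA. The lower one was Nr2f1, an orphan nuclear receptor, at -0.57 (SE 0.25, adjusted p = 0.933, limma). None passed the adjusted threshold. Foxp1, the factor of limb-innervating motor neurons, was 0.53 above wild type in SMA (SE 0.23, adjusted p = 0.811, limma) and 0.54 above it in transplanted SMA (SE 0.23, adjusted p = 0.739, limma). Pou3f1, also called SCIP, measured 19.4, 26.7 and 21.9 in wild type and 171.0, 31.3 and 43.1 in transplanted SMA. The difference was 1.06 (SE 0.47, adjusted p = 0.754, limma), with transplanted array 1 far above the other arrays. The brightest Pou3f1 probe set overlapped, at 36.3, 32.6 and 51.2 in wild type and 162.8, 36.3 and 34.9 in transplanted SMA. Of 25 genes of motor neuron subtypes and surface with a probe set, 2 of them members, 21 of 42 probe sets were above background and 17 probe sets were tested, and the only one at an unadjusted p under 0.05 was a small heat shock protein gene, Hspb8, 0.76 higher in transplanted SMA than in wild type (SE 0.33, adjusted p = 0.754, limma).

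The signals of each list, members included, were summed per array. The transcription factor list summed to 894 to 1104 in wild type, 1076 to 1184 in SMA and 978 to 1174 in transplanted SMA. The subtype and surface list summed to 1355 to 1605, 1537 to 1554 and 1378 to 1788, and the acetylcholine synthesis list to 3097 to 3106, 2867 to 3065 and 2679 to 3285. The ranges of the first 2 lists overlapped between all groups, and the acetylcholine synthesis sum of every SMA array lay below every wild-type one. SMA array 3, at 3065, was just under the lowest wild-type sum, 3097, and the lowest sum was on a transplanted array. The largest mean signals in that sum were those of Pdhb (816), Acly (722) and Pdha1 (548). Ache added 42.6, Slc18a3 13.4 and Slc5a7 7.9, so the sum says little of the cholinergic members. Glia were read on all arrays as well. The 12 astrocyte genes summed to 10281 to 17641 over the 9 arrays. The 11 microglia genes summed to 6736 to 14685 in wild type, 11233 to 12743 in SMA and 5757 to 11775 in transplanted SMA. Of 16 tested microglia probe sets, 0 had a positive difference in transplanted against vehicle-treated SMA (median -0.83), against 50.3% of all tested probe sets. At an unadjusted p under 0.05, 9 were lower, against 4.77% of all tested probe sets in either direction, and 0 passed the adjusted threshold in limma. The part of microglia in the member differences of that comparison, Isl2 and Ache among them, was not tested. Sums of different lists hold different probe sets and are not compared with each other. The 8 meninges genes were highest on transplanted array 1, at 8087 against 1469 to 4981 on the other 8. That array also held the highest Isl2, Socs3 and Pou3f1 values, and the part of meninges in these was not tested.

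**Figure D4:**
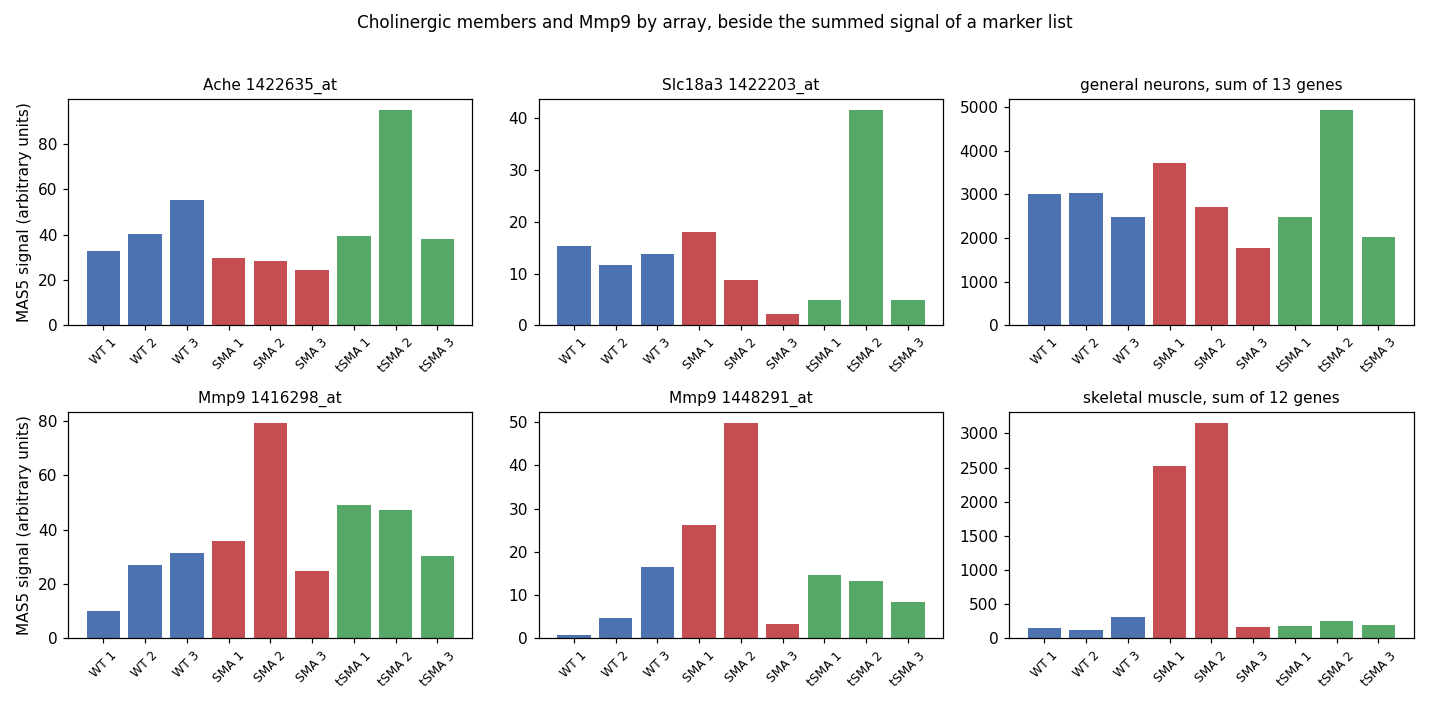
Bars are the MAS5 signal on each of the 9 arrays (WT, wild type; tSMA, transplanted SMA) of Ache, Slc18a3 and both Mmp9 probe sets, and the summed signal of 13 general neuron genes and of 12 skeletal muscle genes, on linear axes from 0 that differ between panels. General neuron genes peak on transplanted array 2 (4944) and skeletal muscle genes on SMA arrays 1 and 2 (2526 and 3154).

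The arrays were alike in brightness, with median signals of 31.4 to 35.8 and total signals of 3226815 to 3453157. Hybridisation controls averaged 864 to 1052 on array 3 of each group and 579 to 691 on the other 6. Without SMA arrays 1 and 2, which left 1 SMA array (animal 3, low in Xist) that is assumed to vary like the other groups, transplanted minus vehicle-treated SMA for Isl2 was 0.46.

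The genes nearest to each tested member were found by the root mean square difference of centred log2 values over the 9 arrays, where 0 is an identical profile. For Isl2 these were Mettl21a (0.23), Ccn1 (0.24) and Eif2s2 (0.25), against a spread of 0.48 for Isl2 itself. For Ache, with a spread of 0.42, they were Arpp21 (0.2), Nrsn1 (0.2) and Ncdn (0.22). For Mmp9, with a spread of 0.49, they were Slfn2 (0.21), Dkk3 (0.22) and Timp2 (0.23). Esrrg, with a spread of 0.28, was nearest to Tcp11, Mycbp and Hint3, each at 0.12. Cntfr, with a spread of 0.38, was nearest to Slc25a33 (0.11), 1110032A03Rik (0.16) and Stx8 (0.16).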

How the data were processed

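The study measured RNA of laser-cut lumbar motor neurons of mice on 9 Affymetrix arrays, 3 in each of 3 groups. The authors deposited 1 MAS5 signal intensity per probe set and array on a linear scale, per the file headers and the submitters' processing notes, and no count or depth. For the MAS5 version and any use of detection calls, the sources used here give nothing. Array controls (64 probe sets) were left out. Signals were taken as log2(signal + 16) with no further normalization, and the brighter 50% of probe sets by mean over the 9 arrays was tested in 1 model of all 9 arrays with limma 3.58.1 (R 4.3.3; lmFit, eBayes with trend), adjusted by Benjamini-Hochberg with a threshold of 0.05. Near-background probe sets were fitted in the same way over all probe sets. The number of arrays limits the precision.

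Probe sets were named through GEO's platform annotation, using those with 1 gene symbol. The text names all member probe sets, from each other list up to 3 genes a comparison with the smallest unadjusted p under 0.05, and the 3 genes nearest to each tested member. The script was tested on simulated data. The members and lists were chosen with earlier results of these data known. Alternatives were the pseudocount, quantile normalization, median centring, array weights, the filter, the trend, the replicate block, only the arrays compared and leaving out arrays.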

Additional observations from a re-analysis of the deposited data

How the results depend on the processing

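In all 20 alternatives, 0 tested member probe sets passed the adjusted threshold in limma in each comparison. Those with an unadjusted p under 0.05 numbered 0 to 1 for SMA against wild type, 0 to 3 for transplanted against vehicle-treated SMA and 1 to 3 for transplanted SMA against wild type. Isl2 kept its direction in all of them against SMA (0.45 to 0.91) and wild type (0.51 to 1.05), and Ache against SMA (0.33 to 0.91) and in SMA against wild type (-0.59 to -0.22). Small differences changed sign, and the cause was not tested. In SMA against wild type, Isl2 was -0.11 with array weights, -0.23 without wild type 3 and SMA 3 and -0.11 to 0.31 leaving out each array. Esrrg was 0.39 without SMA 1 and SMA 2 and -0.28 to 0.1 leaving out each array. Cntfr was -0.0036 with quantile normalization, -0.02 with median centring, -0.12 with array weights, -0.17 without wild type 3 and SMA 3 and -0.26 to 0.31 leaving out each array. In transplanted against vehicle-treated SMA without SMA 1 and SMA 2, Mmp9 was 0.5, Esrrg -0.12 and Cntfr -0.25, and Mmp9 ran from -0.29 to 0.32 leaving out each array. Ache in transplanted SMA against wild type ran from -0.09 to 0.43. The brighter 25% of probe sets held no member and gave no value. With the replicate number as a block, 0 members were called in each comparison, and 0, 2 and 1 had an unadjusted p under 0.05. Same-numbered arrays correlated between -0.0832 and 0.453, not all above 0.1, so the numbers were not taken to pair the samples. The number 3 arrays, which also had the higher hybridisation controls, correlated at 0.453, 0.136 and 0.273. Those of number 1 gave 0.298, -0.0832 and 0.118, and those of number 2 gave 0.0291, 0.106 and 0.0243. Arrays of different numbers ran from -0.472 to 0.332. Signal over background limits what can be said of the 9 dim probe sets.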
